A study of Mus musculus with 4 samples.

Results

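The genes described here are 41 genes of Wnt signalling, in 3 roles: 19 Wnt ligands, 12 receptors (the Frizzled genes Fzd1 to Fzd10 and the coreceptors Lrp5 and Lrp6), and 10 intracellular effectors. They were chosen by name, with earlier results of these data known. All 41 were found among 21887 protein-coding genes of the nuclear chromosomes. The values are positions and scores of peaks from chromatin immunoprecipitation and sequencing (ChIP-seq) of HA-tagged Fbxl10, a histone demethylase also called Kdm2b. Induced mouse embryonic fibroblasts (MEFs) received doxycycline at 1 µg/ml for 48 hours, which switches on the tagged protein. Non-induced MEFs carried the same overexpression model and no doxycycline treatment is given for them. Both groups were precipitated with the same HA antibody, and each gave 1 deposited peak list. The sources used here do not give the promoter that drives the tagged gene or the number of clones or embryos, and peak lists hold no expression values with which fibroblast markers could be checked.

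There were 5497 induced peaks and 10532 non-induced peaks. Each carries a score that the authors' peak caller wrote, and no score was under 50. With 1 list per condition there is no replicate spread, so no difference between the conditions or between gene groups was tested, and the counts below describe these lists. Read depth is unknown. A peak was counted at a gene border when any base of it lay within 1 kb of the gene's annotated start or end, and a wider count took peaks inside the gene or within 5 kb of it.

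Wnt ligands are secreted, lipid-modified proteins that bind Frizzled receptors together with the coreceptors Lrp5 or Lrp6. The signal passes through Dishevelled proteins (Dvl1 to Dvl3) and blocks a complex built on the scaffolds Axin1 and Axin2 that otherwise marks beta-catenin (Ctnnb1) for destruction. Beta-catenin then acts in the nucleus with transcription factors of the Tcf/Lef family. In fibroblasts the pathway takes part in growth, matrix production and the patterning of embryonic mesenchyme. Fbxl10 has a CXXC zinc finger that binds unmethylated CG dinucleotides, and it belongs to a variant Polycomb repressive complex.

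The windows around transcript starts in RefSeq (GRCm38.p6, the coordinates of mm10) are shown first, because an induced peak covered the whole window at 4 of these genes and left CG-dense windows uncovered at others. Each window runs from 250 bases before the start to 50 bases from it onward, 5′ to 3′ on the gene's strand, with each CG in capitals. The first 4 windows below were covered over all 300 bases. At Wnt9a and Lef1 the induced peak lay beside the window, and Fzd9 and Wnt8b had no peak of either list.
Dvl2, chr11:70000342-70000641, plus strand: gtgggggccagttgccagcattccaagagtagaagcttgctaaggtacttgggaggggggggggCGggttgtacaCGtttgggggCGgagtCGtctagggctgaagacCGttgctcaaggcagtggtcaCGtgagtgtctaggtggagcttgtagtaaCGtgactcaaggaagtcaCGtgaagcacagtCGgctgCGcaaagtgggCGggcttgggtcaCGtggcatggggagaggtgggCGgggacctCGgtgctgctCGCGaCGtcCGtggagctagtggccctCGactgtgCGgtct
Tcf7l1, chr6:72788996-72789295, minus strand: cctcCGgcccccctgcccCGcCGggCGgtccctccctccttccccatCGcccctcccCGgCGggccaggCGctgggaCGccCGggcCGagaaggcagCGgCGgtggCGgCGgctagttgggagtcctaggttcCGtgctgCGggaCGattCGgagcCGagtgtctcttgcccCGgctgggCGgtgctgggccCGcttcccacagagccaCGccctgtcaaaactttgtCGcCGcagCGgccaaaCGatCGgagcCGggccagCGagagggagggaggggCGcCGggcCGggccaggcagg
Axin2, chr11:108920099-108920398, plus strand: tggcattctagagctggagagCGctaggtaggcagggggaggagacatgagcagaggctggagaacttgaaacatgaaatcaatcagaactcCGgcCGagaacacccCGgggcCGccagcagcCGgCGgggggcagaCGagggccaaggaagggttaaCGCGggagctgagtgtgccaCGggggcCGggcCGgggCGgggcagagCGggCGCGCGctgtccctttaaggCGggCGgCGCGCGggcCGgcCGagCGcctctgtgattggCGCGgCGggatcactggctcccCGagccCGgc
Fzd7, chr1:59481897-59482196, plus strand: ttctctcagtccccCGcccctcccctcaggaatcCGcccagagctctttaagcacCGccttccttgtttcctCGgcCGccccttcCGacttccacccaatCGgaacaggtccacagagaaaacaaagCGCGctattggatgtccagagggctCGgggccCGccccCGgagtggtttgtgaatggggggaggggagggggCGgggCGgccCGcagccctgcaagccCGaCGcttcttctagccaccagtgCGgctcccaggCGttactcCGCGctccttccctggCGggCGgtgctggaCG
Wnt9a, chr11:59306680-59306979, plus strand: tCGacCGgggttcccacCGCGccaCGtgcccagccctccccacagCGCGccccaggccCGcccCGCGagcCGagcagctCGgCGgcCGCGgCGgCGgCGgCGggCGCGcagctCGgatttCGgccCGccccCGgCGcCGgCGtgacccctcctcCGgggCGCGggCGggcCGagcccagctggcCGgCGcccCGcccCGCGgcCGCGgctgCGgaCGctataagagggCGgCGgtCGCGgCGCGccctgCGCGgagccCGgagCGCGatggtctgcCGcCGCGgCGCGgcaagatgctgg
Lef1, chr3:131110047-131110346, plus strand: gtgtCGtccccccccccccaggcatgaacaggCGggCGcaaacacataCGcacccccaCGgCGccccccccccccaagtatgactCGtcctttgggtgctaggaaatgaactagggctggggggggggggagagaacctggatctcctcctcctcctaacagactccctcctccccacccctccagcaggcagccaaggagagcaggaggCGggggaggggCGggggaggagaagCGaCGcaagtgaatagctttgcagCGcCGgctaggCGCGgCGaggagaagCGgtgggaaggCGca
Fzd9, chr5:135250998-135251297, minus strand: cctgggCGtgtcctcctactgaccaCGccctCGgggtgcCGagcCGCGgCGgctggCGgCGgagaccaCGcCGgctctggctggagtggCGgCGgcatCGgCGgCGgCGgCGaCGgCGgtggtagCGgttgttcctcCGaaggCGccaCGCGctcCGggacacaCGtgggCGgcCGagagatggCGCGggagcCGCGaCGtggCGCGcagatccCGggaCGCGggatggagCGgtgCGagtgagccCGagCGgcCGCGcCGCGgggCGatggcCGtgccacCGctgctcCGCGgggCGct
Wnt8b, chr19:44493222-44493521, plus strand: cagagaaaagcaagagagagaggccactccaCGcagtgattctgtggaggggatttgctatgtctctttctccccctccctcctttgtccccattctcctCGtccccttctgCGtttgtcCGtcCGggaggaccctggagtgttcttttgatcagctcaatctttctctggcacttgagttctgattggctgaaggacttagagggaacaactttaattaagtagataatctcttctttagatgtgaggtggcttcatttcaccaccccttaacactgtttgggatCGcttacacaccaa
Dvl2 (20 CG), Tcf7l1 (34), Axin2 (31) and Fzd7 (24) were the covered windows. The uncovered windows of Wnt9a and Fzd9 held 58 and 53 CG, more than any covered one, while Wnt8b held 6.

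In the induced list 13 of the 41 Wnt genes (31.7%) had a peak within 1 kb of a start or end, against 2930 of all 21887 protein-coding genes (13.4%). In the non-induced list 2 of the 41 (4.88%) did, against 348 of all genes (1.59%). By role, 5 of 12 receptors (41.7%), 3 of 10 effectors (30%) and 5 of 19 ligands (26.3%) had an induced border peak. The order of receptors and effectors was not kept by other settings. With a score of at least 100 it was 3 of 12 receptors (25%) and 3 of 10 effectors (30%). Ligands then had 2 of 19 (10.5%), and all genes 4.25%. Within 500 bp it was 2 of 12 receptors (16.7%) and 2 of 10 effectors (20%). Ligands had 3 of 19 (15.8%) there, and all genes 11.3%. In the non-induced list 0 receptors, 1 effector and 1 ligand had a peak within 1 kb. Of the 13 genes 12 had border peaks in the induced list alone, and Lef1 had them in both lists. A border peak in the induced list alone was the usual case. Over all protein-coding genes, only 74 of the 2930 with an induced border peak had both (0.338% of all genes). Wnt3 was the 1 gene with a border peak in the non-induced list alone. Within 1 kb the 13 genes drew on 14 different induced peaks, so no peak was counted for more than 1 of them.

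**Figure D1:**
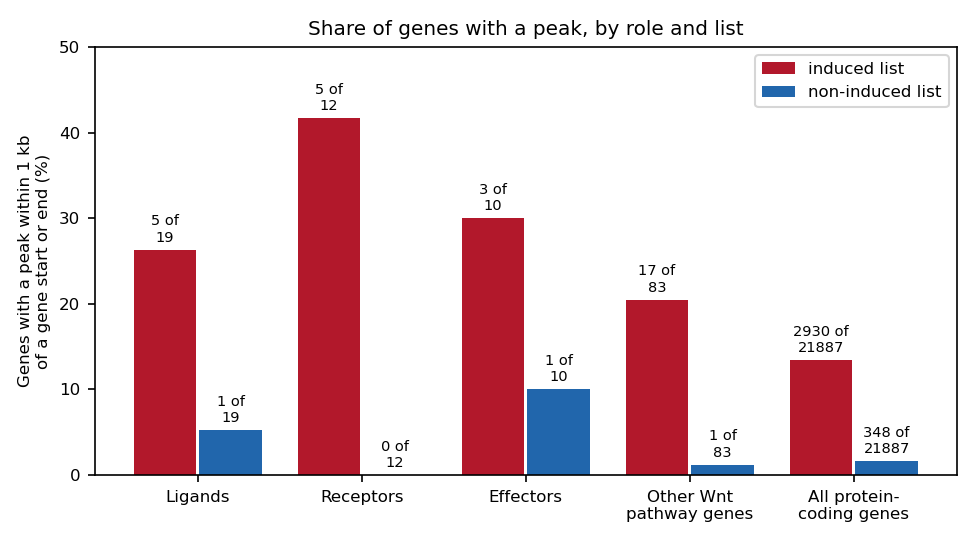
Share of genes (%) with a peak within 1 kb of a gene start or end, in the induced list (left bar of each group) and the non-induced list (right bar), with the number of genes written above each bar. Each of the 3 roles stands above the 13.4% of all protein-coding genes in the induced list. The receptors have 5 of 12 in the induced list and 0 of 12 in the non-induced list, where all protein-coding genes have 1.59%.

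Of the genes counted, Lef1 lay nearest the limit of 1 kb in the induced list, with its peak 961 bp from the start, and Axin2 was the nearest gene beyond it, at 2153 bp. In the non-induced list these were Wnt3 at 928 bp and Wnt9b at 2025 bp. Wider windows added genes in both lists. Within 5 kb of a start or end, 16 of the 41 had an induced peak (39%, all genes 18.4%) and 4 a non-induced peak (9.76%, all genes 5.36%). Inside the gene, 17 had an induced peak (41.5%, all genes 16.5%) and 5 a non-induced peak (12.2%, all genes 10.2%). Counting either place, 19 had an induced peak (46.3%, all genes 21.4%) and 7 a non-induced peak (17.1%, all genes 12.7%). Longer genes offer a longer target, and the median Wnt gene spans 22906 bp against 17169 bp for all protein-coding genes. The 13 genes with an induced border peak had a median length of 7495 bp, and the 28 others 32500 bp. The part of gene length in these counts was not tested.

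Among the ligands, Wnt5a, which signals mainly through routes that do not need beta-catenin, had the most peaks. Its gene (chromosome 14, 28504543 to 28527448) held 6 induced peaks within 7.96 kb, all inside the gene. From the lower coordinate upward their scores were 65.85, 52.18, 106.32, 203.89, 68.25 and 50.50. The peak at 203.89 (28508175 to 28509686) was 1512 bp wide and began 3632 bp from the lower end of the gene, and 140 of the 5497 induced peaks, itself included, scored at least as high. Only 11 of all protein-coding genes (0.0503%) had 6 or more induced peaks inside or within 5 kb. Wnt5a was also the 1 Wnt gene where the lists met: a non-induced peak of score 61.16 (28506925 to 28507508) shared 143 bp with the induced peak of 52.18 and 432 bp with that of 106.32. Of all protein-coding genes 0.448% had such an overlapping peak.

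**Figure D2:**
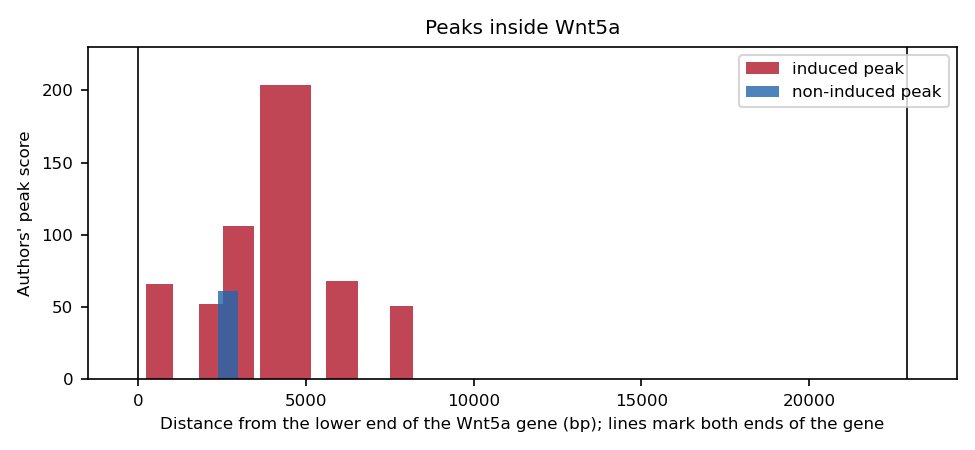
Peaks inside Wnt5a, with the distance from the lower end of the gene (bp) on the x axis and the authors' peak score on the y axis; bar width is peak width. The 6 induced peaks lie within 7.96 kb toward the lower end, with the highest at 203.89, and the single non-induced peak at 61.16 overlaps 2 of them.

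Wnt11 and Wnt10b had the highest ligand scores at a border. At Wnt11, a ligand known from cell movements in fish and frog gastrulae (chromosome 7, 98835084 to 98854747), 1 induced peak of score 132.77 ran over 2774 bp (98835797 to 98838570), the widest at any of these genes, and there was no non-induced peak within 5 kb or inside. At Wnt10b, a ligand known for promoting bone over fat formation (chromosome 15, 98770712 to 98778206, minus strand), the induced peak scored 121.90 and lay from 235 to 1329 bp downstream of the listed start. Its neighbour Wnt1, the founding member of the family, lies 11.7 kb away and had 2 induced peaks of its own. The one of score 80.56 ended 535 bp before the start, and the one of 55.39 began 1032 bp after it, just outside the 1 kb window. Wnt9a, which acts in joint formation, had an induced peak of 58.70 from 397 to 1026 bp downstream of its start. Wnt1, Wnt9a and Wnt10b had no non-induced peak within 5 kb or inside.

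A further 4 ligands had induced peaks away from their borders. In Wnt6 (96.49) the peak ended 1023 bp before the listed start, deep inside a gene model that begins farther upstream. In Wnt5b (94.60) it lay 13352 bp before the nearest listed start. That peak overlapped part of another gene, Fbxl14, and lay within 1 kb of a border of Fbxl14. Peaks outside the gene were 3651 bp from Wnt8a (65.05) and 2974 bp from Wnt10a (53.14). Among the 14 ligands with no induced border peak were Wnt2, Wnt2b, Wnt3a, Wnt4, Wnt7a, Wnt7b, Wnt8b and Wnt16, which had no peak of either list inside or within 5 kb. For these 8 the nearest induced peak was between 16.6 kb (Wnt3a) and 526 kb (Wnt2) away.

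Non-induced peaks touched 3 ligands. The highest, of score 91.66 (chromosome 11, 103772748 to 103773247), ended 928 bp before the start of Wnt3 and lay inside the model of its neighbour Wnt9b, with which Wnt3 shares 1098 bp. In the wider count this 1 peak counts for both genes, and neither had an induced peak inside or within 5 kb. The peak in Wnt5a is described above. Among the non-induced peaks 592 of 10532 scored at least as high as that at Wnt3.

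The receptors with an induced border peak were 5 Frizzled genes whose models span 3346 to 7193 bp. Fzd8 had the highest score of all 41 genes: 309.57 in the induced list, on a peak of 1614 bp that crossed the lower end of the gene, and 31 induced peaks, itself included, scored at least as high. A second induced peak inside Fzd8 scored 95.51. At Fzd2 (chromosome 11, 102604431 to 102608058) the induced peak scored 157.33 and began 623 bp inside the gene from its lower end. At Fzd7 (chromosome 1, 59482147 to 59486955) 1 induced peak of 64.94 covered the start and another of 128.03 lay from 723 to 2331 bp downstream. Fzd5 had a peak of 84.63 that ended 603 bp before its start and another of 56.57 that began 2478 bp after it. Fzd4, the receptor for norrin as well as Wnt ligands, had 1 of 61.25 from 618 to 1325 bp downstream, which was also within 1 kb of Tmem135. None of these 5 genes had a non-induced peak inside or within 5 kb.

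None of the other receptors had a border peak of either list. Lrp6 had 1 induced peak of 50.42 and 1 non-induced peak of 63.06 within its 120438 bp, 57780 bp apart. Fzd3, known from axon guidance, had a non-induced peak of 59.93 inside and no induced peak. Fzd1, Fzd6, Fzd9, Fzd10 and Lrp5 had no peak of either list inside or within 5 kb. Fzd10 was the most remote, with the nearest induced peak 897 kb away. Of the 41 genes 5 had 2 or more induced peaks inside or within 5 kb, which 3.68% of all protein-coding genes had. They were Wnt1, Wnt5a, Fzd5, Fzd7 and Fzd8, so 3 of them were Frizzled genes.

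Among the effectors, Lef1 had peaks of both lists that did not touch. Lef1 (chromosome 3, 131110297 to 131224357) encodes a DNA-binding partner of beta-catenin. Its induced peak of 133.11 (131111258 to 131112641) began 961 bp inside the gene, near the edge of the 1 kb window. Its non-induced peaks lay on the other side of the start, with 78.90 ending 389 bp before it and 60.16 ending 1798 bp before it. The nearer was 1349 bp away from the induced peak. Tcf7l1, the family member best known as a repressor, had an induced peak of 101.72 that ran from -852 to 63 bp relative to its start. Dvl2 had an induced peak of 100.23 from -702 to 418 bp relative to its start, which also overlapped the neighbouring gene Phf23. Neither Tcf7l1 nor Dvl2 had a non-induced peak inside or within 5 kb.

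Axin2, a scaffold and a classical target of the pathway itself, had an induced peak of 65.30 that covered its listed start, from -368 to 331 bp relative to it. It was not in the border count because the gene model begins 2521 bp farther upstream. Tcf7l2 had 1 non-induced peak of 51.03 within its 191863 bp and no induced peak. Tcf7, Axin1, Ctnnb1, Dvl1 and Dvl3 had no peak of either list inside or within 5 kb. Dvl1 was the closest of the genes without a peak to an induced one, at 5.49 kb, followed by Dvl3 at 13.8 kb and Wnt3a at 16.6 kb. Axin1 lay 5.86 kb from a non-induced peak.

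**Figure D3:**
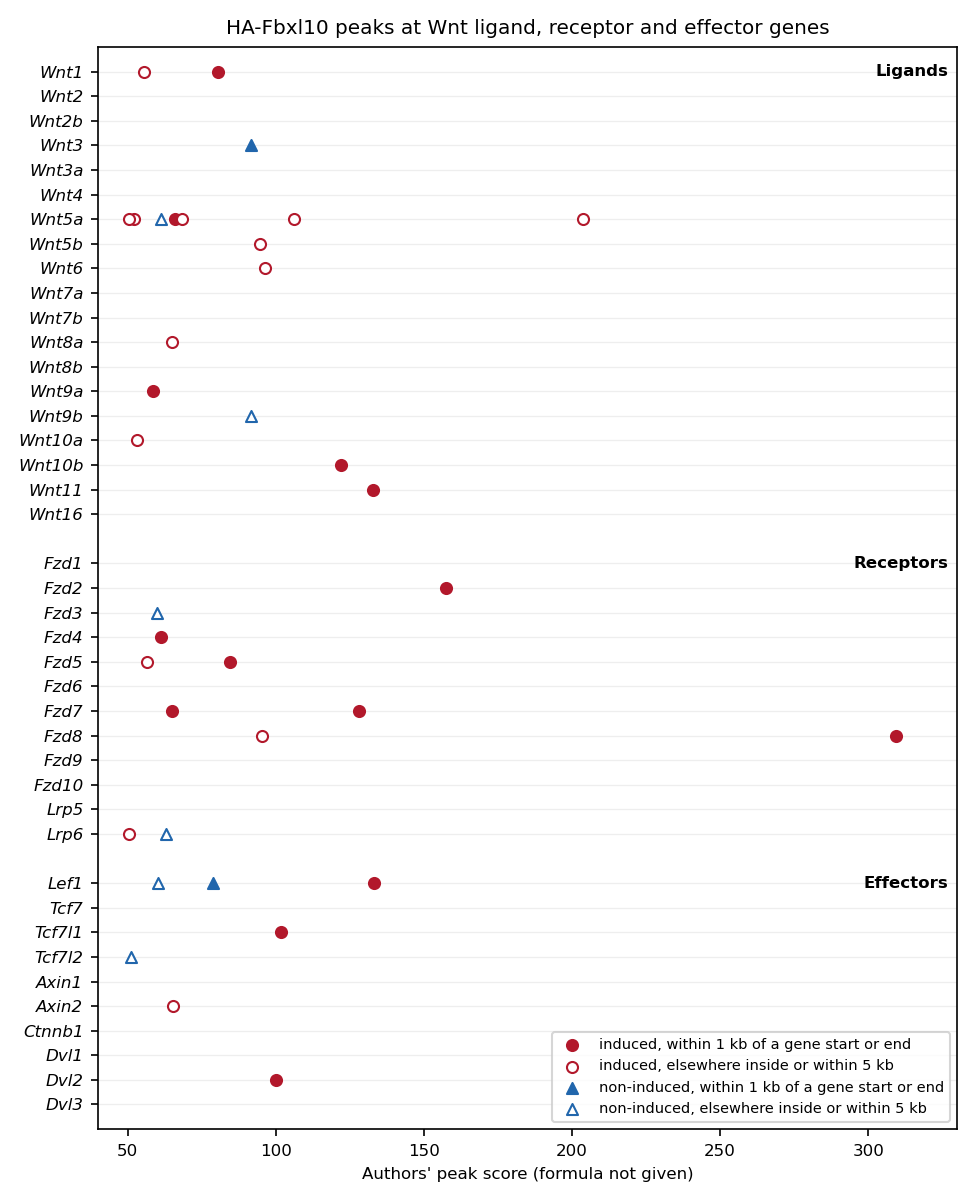
Authors' peak score (x axis) of every induced peak (circles) and non-induced peak (triangles) inside or within 5 kb of the 41 genes (rows, grouped by role); filled symbols lie within 1 kb of a gene start or end. Induced peaks reach 309.57 at Fzd8 and 203.89 in Wnt5a, while no non-induced peak exceeds 91.66, and 18 genes have no symbol. Over the whole lists, 21.2% of induced and 3.59% of non-induced peaks score at least 100.

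In the induced list the Wnt border peaks had a higher median score than border peaks in general. The 14 peaks had a median score of 101 (range 58.70 to 309.57) and a median width of 1025 bp. All 2591 induced peaks at borders of protein-coding genes had a median score of 78.6 and a median width of 864 bp. Of the 14 peaks 8 (57.1%) scored at least 100, against 776 (29.9%) of all border peaks. In the non-induced list the 7 peaks at these genes ranged from 51.03 to 91.66, and none scored 100 or more. Such scores were rare in that list: 3.59% of all its peaks and 7.23% of its border peaks reached 100. No test was made of these differences, since neighbouring peaks of 1 library are not replicates.

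Of the induced peaks near a start, 8 of 12 lay beside it and 4 covered it. RefSeq starts with strand were listed for 30 of the 41 genes, and the missing entries were Wnt5a, Wnt7b, Wnt8a, Wnt10a, Fzd2, Fzd3, Fzd6, Fzd8, Lrp5, Lrp6 and Axin1. Within 1 kb of a listed start, 11 of the 30 genes (36.7%) had an induced peak, against 14.0% of 17492 protein-coding genes with an entry, and 2 had a non-induced peak, against 0.972%. The 11 genes had 12 such peaks. Measured from the first start of each gene, 4 of the 12 (33.3%) covered it, at Fzd7, Tcf7l1, Axin2 and Dvl2, while 6 lay wholly downstream and 2 wholly upstream. Of the 2171 induced peaks within 1 kb of the first start of any protein-coding gene, 1219 (56.1%) covered it. Wnt11 and Lef1 have later listed starts. Their peaks lie downstream of the first start and end 275 bp (Wnt11) and 150 bp (Lef1) before a later one. Where the border window was narrowed to 500 bp, 7 of the 41 genes had an induced peak (17.1%), against 11.3% of all genes. That is a loss of 46.2% of the 13 genes, against a loss of 15.8% over all genes. The 6 genes lost were Wnt1, Wnt11, Fzd2, Fzd4, Fzd5 and Lef1. This window is measured from gene ends, so the nearness of the Wnt11 and Lef1 peaks to later starts does not count.

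**Figure D4:**
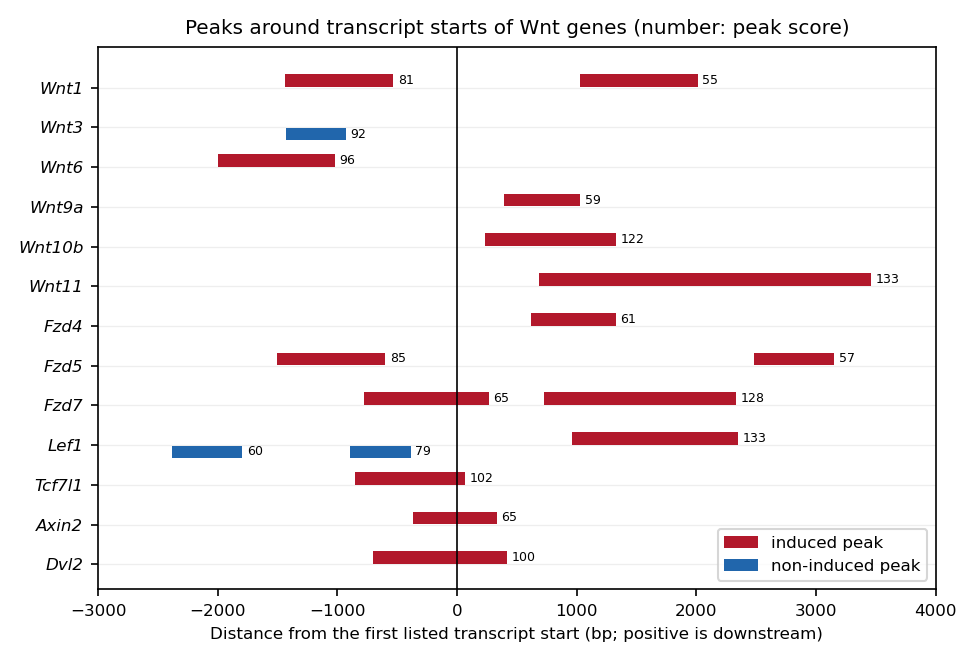
Induced and non-induced peaks (bars, with the peak score as a number) by distance from the first listed transcript start (bp, positive downstream) at the Wnt genes with a strand and a peak in this range. Only the bars of Fzd7, Tcf7l1, Axin2 and Dvl2 cross 0, and both non-induced bars of Lef1 lie upstream while its induced bar lies downstream.

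Of the 30 starts 26 were CpG-rich (86.7%), against 45.8% of all protein-coding genes with an entry. Among the Wnt genes the share was 81.8% with an induced peak within 1 kb of a listed start and 89.5% without. Over all protein-coding genes it was 79.2% with such a peak and 40.3% without. The 30 windows had a median of 33 CG, against 13 over all protein-coding genes. The 11 genes with an induced peak within 1 kb of a start had a median of 31 CG (range 18 to 58), and the 19 others 35 (range 6 to 53). Over all protein-coding genes the medians were 24 with such a peak and 10 without. A window was called CpG-rich where GC was at least 50% and the CG count at least 0.6 of that expected from its C and G content, a definition chosen after the data were seen. Of 26 CpG-rich Wnt genes 9 (34.6%) had an induced peak, against 24.2% of 8004 CpG-rich genes. Of the 4 others 2 did, Wnt10b and Lef1, against 5.34% of 9488 genes. These differences were not tested. Wnt10b and Lef1 fell just short of the limit of 0.6, at 0.56 and 0.53. Their windows held 18 CG each, above the median of 13 over all genes, and no peak overlapped them. Among the windows shown, Wnt9a, with 58 CG, had the lowest score at a border (58.70), and Lef1, with 18, had 133.11.

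**Figure D5:**
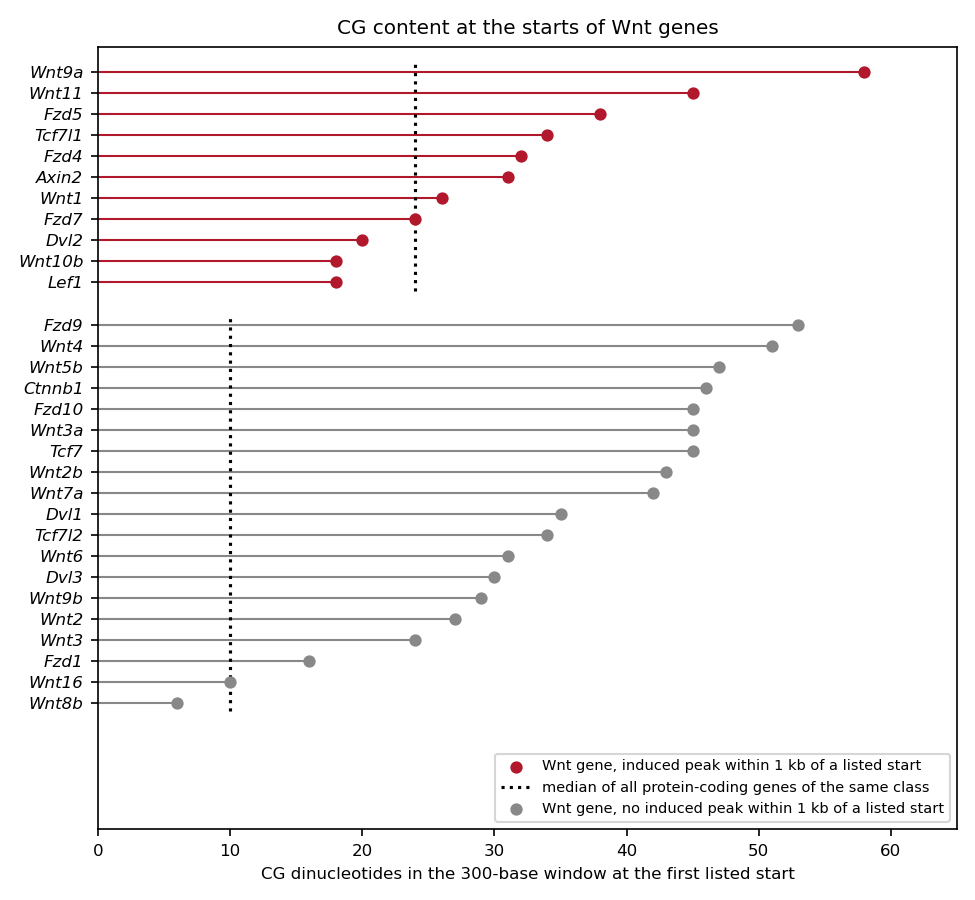
Number of CG dinucleotides in the 300-base window at the first listed start (x axis) of 30 Wnt genes (rows), with those that had an induced peak within 1 kb of a listed start above those that had none; dotted lines are the medians of all protein-coding genes with (24) and without (10) such a peak. Genes without a peak reach 53 CG at Fzd9 and 51 at Wnt4, above every gene with one except Wnt9a at 58.

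The windows were also searched for CTTTGAT on both strands, a core of the site that Tcf/Lef factors bind. At first starts it was found in Wnt11 alone, 1 of 30 genes (3.33%), against 573 (3.28%) of all 17492 genes. A later start of Wnt5b held it too.

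Other genes of the pathway were set beside these 41, in a list of 83 chosen with earlier results of these data known. Of the 83 genes 17 (20.5%) had an induced border peak, against the 13.4% of all genes, and 1 (1.2%) a non-induced one, against 1.59%. The induced share rests on the target genes of the list: of the 71 others 9 (12.7%) had one, which is near the share of all genes. The groups of the list hold 3 to 15 genes each, and differences between them were not tested. Genes with an induced border peak are given by group below, to be read beside the 13.4% of all genes. Among 12 well-known target genes 8 had one (66.7%), with Ccnd1 (249.65), Jun (161.31), Myc (157.11) and Tbx3 (152.86) highest, and none had a non-induced border peak. The peaks of these 4 were known when the list was drawn up, so they say nothing independent of the group. Among 14 nuclear cofactors and feedback inhibitors 3 had one (21.4%): the chromatin remodeller Chd8 (160.43) and the Groucho corepressors Tle3 (115.00) and Tle1 (75.26).

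Of 11 planar cell polarity genes, which orient cells within a sheet, 3 had an induced border peak (27.3%): Celsr3 (68.29), Daam1 (60.57) and Vangl2 (59.64). Of the 6 alternative receptors 1 had one (16.7%), Ryk (51.91), and of the 9 genes of the R-spondin system 1 (11.1%), Rspo2 (77.60). Of 15 genes of the destruction complex and its kinases 1 did (6.67%), Gsk3b (78.80). As at Axin2, these counts leave out peaks at listed starts that lie inside a gene model. Apc2, of that complex, had an induced peak of 68.98 that began 221 bp after a listed start. The polarity gene Prickle1 had one of 73.04 that covered a listed start. None of the 3 genes of ligand secretion had an induced border peak. Notum, an enzyme that inactivates Wnt ligands, had an induced peak of 85.37 inside. None of the 13 genes listed as secreted inhibitors, such as the Dkk and Sfrp genes, had an induced peak inside or within 5 kb, against 21.4% of all genes. Notum is secreted and also inhibits Wnt signals, and with it the count is 1 of 14. In that group Frzb had the only non-induced border peak of the 83 genes (52.02), and Dkk2 had a non-induced peak of 70.26 inside. The highest non-induced peaks at the 83 genes lay away from the borders, inside Fbxw11 (103.11) and Gsk3b (100.11).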

How the data were processed

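The labels describe 4 libraries in 4 groups: an HA ChIP and an input library from induced MEFs, and the same from non-induced MEFs. The input libraries were not analysed here. Reads were aligned with Bowtie2 to mm10, per the submitters' processing notes, and MACS called the peaks, as their deposited names show; the sources used here give no versions, threshold or pooling, and the protocol speaks of several independent samples. Each peak's score was deposited by the authors, its formula is not stated, and it was used to describe and rank peaks; whether both lists share a scale was not tested. Lists were assigned by the marks w and wo in their names, matched to the library titles. The lists hold no read counts, so depth is unknown.

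Peak starts were converted to counting from 1. Genes came from RefSeq (GRCm38.p6), which gives gene ends without strand. Strand, starts and 300-base windows came from the RefSeq promoter table. Any base of a peak within 1 kb of a gene's start or end counted; peaks of different lists overlapped from 1 bp. All 41 genes were matched by symbol. Genes and lists were chosen with earlier results of these data known. Values are given for every gene with a border peak or overlapping peaks, the highest score for other genes with a peak, and per group of other pathway genes the genes with the highest border peaks (up to 4 induced, 2 non-induced). The overlap function was tested on simulated data. No significance test was made, since each condition has 1 list. Alternatives were a score of at least 100 or at least the joint median (61.6), lists of equal size, windows of 500 bp and 5 kb, peak midpoints, gene starts alone, and overlaps of 50% or gaps of 1 kb. Distance to listed transcript starts and the CpG-rich class were added after the data were seen. Python 3.11.15, numpy 2.4.6, pandas 2.3.3 and matplotlib 3.10.9 were used.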

Additional observations from a re-analysis of the deposited data

How the results depend on the processing

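The count of the 41 genes with an induced border peak was 13 as reported (31.7%, all genes 13.4%), 11 at scores of at least the joint median (26.8%, all genes 9.8%), 9 by peak midpoints (22%, all genes 11.6%), 16 within 5 kb, 10 by gene starts (30 genes with strand) and 11 by listed transcript starts, a setting added after the data were seen. With a score of at least 100 there were 8 such genes (19.5%, all genes 4.25%), of them 2 ligands, 3 receptors and 3 effectors, 6 other pathway genes, and 9 of the 41 with an induced peak inside or within 5 kb. At that score none of the 41 had a non-induced peak inside or within 5 kb, or overlapping peaks. No other pathway gene had a non-induced border peak then, and of all genes only 0.11% did. A window of 500 bp left 7 genes with an induced border peak (17.1%, all genes 11.3%), of them 3 ligands, 2 receptors and 2 effectors, and 12 other pathway genes. In that window 1 of the 41 and 0 of the other pathway genes had a non-induced peak (all genes 0.982%). Within 5 kb, 4 of each did (all genes 5.36%). By midpoints 3 receptors had an induced border peak, and 1 of the 41 and 0 of the other pathway genes a non-induced one (all genes 1.26%). By gene starts there were 3 receptors and 11 other pathway genes with an induced peak (all genes 12.7%). The receptors Fzd2 and Fzd8 have no listed strand, so they could not be counted this way. With a non-induced one there were 0 other pathway genes (all genes 0.863%). Fewer genes have a strand. Scores of at least the joint median left 4 genes with a non-induced peak inside or within 5 kb and 0 with overlapping peaks. The non-induced peak in Wnt5a (61.16) fell just below that median of 61.6. For overlapping peaks, and for peaks inside or within 5 kb, shares of all genes are not given at the other settings. At the joint median 0 other pathway genes had a non-induced border peak (all genes 0.845%), and with lists of equal size also 0 (all genes 0.914%). Non-induced counts of 2 and 1 change with a single peak. No paired analysis was possible because each condition has 1 list. Unknown depth and the single list per condition limit every comparison.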
